A study of Homo sapiens with 4 samples.

Results

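The microRNA genes with the brighter array signals were examined in HUT78, a human cell line derived from a cutaneous T-cell lymphoma, after exposure to CSH71 and without it. They were selected on their array intensity, from the platform's probe-to-gene annotation, as genes with a microRNA symbol (host-gene and antisense transcripts left out) whose mean intensity over the 4 arrays was at least 100. MIR21 and MIR192 were added by name. This gave 203 of the 1072 microRNA genes on the array, among 14884 named genes in all. MIR21 passed the intensity floor by itself, with a mean of 416. MIR192 did not, at 18.5, so it is not one of the brighter genes and is described here only because the rule names it. The choice of the other 201 genes used the mean over both groups, which a gene can reach through the group in which it is high. Only the CSH71 mean reached 100 for 11 members, and only the untreated mean for 5.

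The 2 treated samples received CSH71 at 250 nM for 30 h, and the 2 untreated samples are the same cell line without it. Per the series, CSH71 acts on p38γ, a mitogen-activated protein kinase, at its domain for binding lipids, and the question was which transcripts differ after treatment. All samples are total RNA of 1 cell line, and nothing in the labels says whether the duplicates were grown separately. The p-values therefore measure only how far these samples spread, and that spread may be technical. In such bulk RNA, fewer cells with a transcript and less of it per cell cannot be told apart.

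A microRNA gene is transcribed as a long primary transcript, from which the nuclear enzyme Drosha with its partner DGCR8 cuts a short hairpin. After export the hairpin is cut by Dicer to the mature microRNA, which is loaded on an Argonaute protein and pairs through its seed, the bases 2 to 8, with messenger RNAs that it represses. In T cells, miR-181 is known for tuning the sensitivity of the T-cell receptor, miR-146a for restraining NF-κB signalling, and miR-21 is among the microRNAs most often described as raised in cutaneous T-cell lymphoma. The labelling assay was made for long RNA, so a probe set at a microRNA gene can read the primary transcript, the hairpin or a host transcript, and the values below are not levels of mature microRNA.

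The sequences of the 2 genes named in the rule are given first because the results turn on them. They are from RefSeq (GRCh38.p14), with the mature arms held in that table in capitals. MIR21 is at chr17:59841266-59841337 on the plus strand, inside the gene VMP1 on the same strand, and MIR192 is at chr11:64891137-64891246 on the minus strand, inside the noncoding host gene MIR194-2HG.
MIR21 hairpin: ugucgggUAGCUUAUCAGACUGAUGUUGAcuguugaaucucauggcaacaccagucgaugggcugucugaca
MIR192 hairpin: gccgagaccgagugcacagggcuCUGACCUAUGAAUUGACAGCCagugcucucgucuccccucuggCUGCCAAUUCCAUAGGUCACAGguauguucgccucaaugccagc

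The mature forms are set below beside the microRNAs on the array that share their seed, which is in capitals. MicroRNAs with 1 seed pair with overlapping sets of targets, so each partner's values are given beside those of the named gene.
hsa-miR-21-5p: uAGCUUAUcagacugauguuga
hsa-miR-590-5p: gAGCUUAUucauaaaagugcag
hsa-miR-192-5p: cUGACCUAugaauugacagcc
hsa-miR-215-5p: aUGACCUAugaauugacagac

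With the pseudocount of 16 used throughout, MIR21 and MIR192 had the largest log2 differences of all 1072 microRNA genes, and both were higher with CSH71. With a pseudocount of 64 the difference of MIR192 was 0.56, below the 0.59 of MIR4525. MIR21 had intensities of 664 and 577 in CSH71-treated cells, against 167 and 255 in untreated cells. The lower treated value was above the higher untreated one by a wide margin. The group means were 621 ± 61.4 with CSH71 and 211 ± 62.9 without it (SD, n = 2 each). On the scale used throughout, log2(intensity + 16), the difference was 1.51 ± 0.23 (SE), with a 95% interval of 0.96 to 2.06. In the limma fit over all 14884 genes its adjusted p was 0.336, so MIR21 did not pass the threshold of 0.05. Its unadjusted p ranked 15 and its difference ranked 11 among all genes. Because MIR21 was named with earlier results of these arrays known, these ranks are a description.

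Whether MIR21 passed depended on the setting. It passed in 6 of 14 alternatives. The replicate block and the intensity trend among them had infinite prior degrees of freedom. Over all 14, the limma adjusted p of MIR21 ran between 3.77e-12 and 0.932 and its log2 difference between 1.23 and 1.80. It passed without CSH71 replicate 1 (limma adjusted p = 0.0421) and without CSH71 replicate 2 (0.0198), but not without untreated replicate 1 (0.858) or untreated replicate 2 (0.451).

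MIR192 is known as a microRNA of liver, kidney and gut epithelium and as a target of p53. It had intensities of 31.1 and 37.6 in CSH71-treated cells, against 1.31 and 3.90 in untreated cells. The groups did not overlap, but all 4 values were low, and the untreated ones lay near the bottom of the table, whose lowest value is 0. The fitted difference was 1.44 ± 0.18 (SE), with a 95% interval of 1.01 to 1.86 and a limma adjusted p of 0.135. It was 3.39 with a pseudocount of 1, against the 0.56 with 64. The size of the MIR192 difference therefore rests on the constant added to dim values, and no background level was used here. MIR192 passed in 5 of 13 alternatives (a filter on dim genes leaves it out), and its adjusted p lay between 0.000167 and 0.858.

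The genes that share a seed with these 2 had differences near 0 or below it. MIR590, whose mature form carries the miR-21 seed, had 221 and 194 in treated cells, against 195 and 239 in untreated cells. Its groups overlapped, with a log2 difference of -0.06 ± 0.19 (SE). MIR215, which shares the miR-192 seed and lies outside the rule, had 6.33 and 15.9 with CSH71, against 15.2 and 16.5 without it. That is a difference of -0.26 ± 0.21 among very dim values. MIR194-2, the neighbour of MIR192 inside the same host gene, had 47.1 and 62.4 in treated cells, against 56.7 and 60.4 in untreated cells, so its groups overlapped too (-0.08 ± 0.19).

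VMP1, the host gene of MIR21, encodes a membrane protein of autophagosome formation. Its intensities were 5209 and 5348 in CSH71-treated cells, against 3777 and 3961 in untreated cells. The 2 groups were apart, with a log2 difference of 0.45 ± 0.17 (SE) and a 95% interval of 0.05 to 0.84. Its limma adjusted p was 0.930. MIR21 and VMP1 were thus both higher on both treated arrays, MIR21 by 1.51 and VMP1 by 0.45 on the log2 scale, and the difference between these 2 values was not tested.

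**Figure D1:**
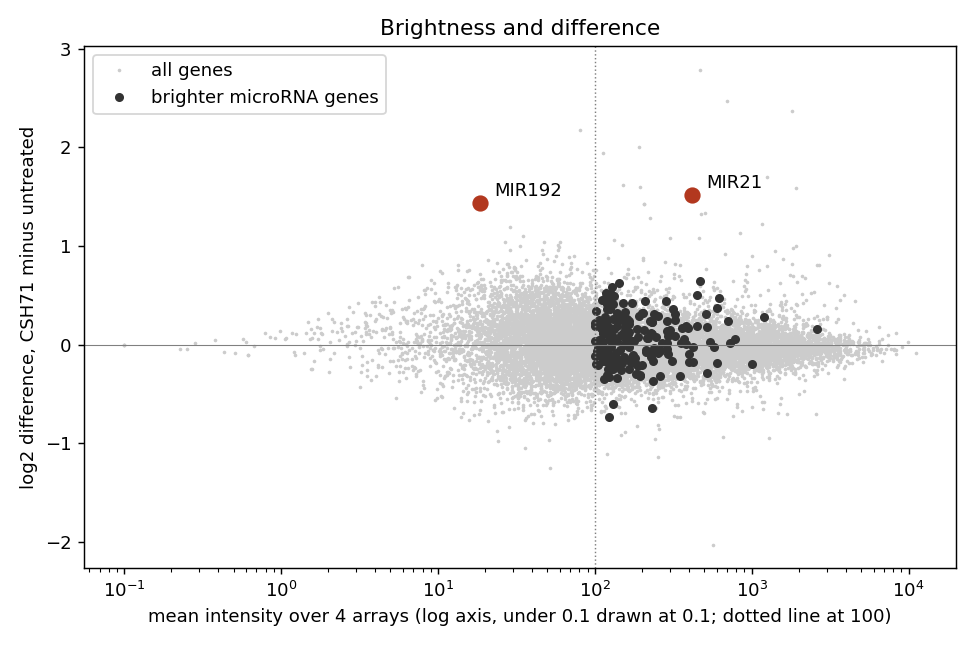
Mean intensity over the 4 arrays (log axis, horizontal) against the log2 difference of CSH71-treated minus untreated cells (vertical) for all 14884 genes in grey and the 203 microRNA genes in black. MIR21, at a mean of 416 and a difference of 1.51, and MIR192, at 18.5 and 1.44, are drawn in red and lie above all other microRNA genes, whose largest difference among the members is 0.65.

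None of the 203 members passed the limma threshold, where 7 of all 14884 genes did (0.047%), 6 of them higher (0.0403%) and 1 lower (0.00672%). At an unadjusted p under 0.05 there were 12 members, which is 5.91% of them against 5.1% of all genes. Of the 12, 9 were higher (3.2% of all genes were) and 3 lower (1.9% of all genes were). Without MIR21 and MIR192 there were 10 of 201 members (4.98%), 7 higher and 3 lower. Both shares are near the background. Apart from MIR21 and MIR192, 192 of the other 201 members differed by less than 0.5 on the log2 scale, and the differences ran from -0.73 to 0.65. A difference of at least 2-fold was seen in MIR21 and MIR192 alone among the members, both named in the rule, and in 0.235% of all genes. The median absolute log2 difference between replicates was 0.23 between the treated arrays and 0.24 between the untreated arrays for the members, against 0.19 and 0.22 for all genes. Between a treated and an untreated array it ran from 0.17 to 0.29 for the members and from 0.17 to 0.24 for all genes. The lowest of these, between CSH71 replicate 2 and untreated replicate 1, was below both replicate values.

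More members lay above the untreated arrays than below them. Both treated arrays were above both untreated arrays for 50 members (24.6%, against 15.0% of all genes) and below them for 19 (9.36%, against 16.6%). Without MIR21 and MIR192 the numbers were 48 (23.9%) and 19 (9.45%). The median log2 difference of the members was 0.06, against -0.01 for all genes, and 124 members were positive and 79 negative. The 869 microRNA genes outside the rule lay alike, with a median of 0.08 and shares of 23.4% and 10.1%. A member can reach the floor through the group in which it is high. This held for 11 members with a mean of at least 100 with CSH71 alone and 5 without CSH71 alone. Among the 186 at the floor in both groups, 43 were higher and 17 lower without overlap.

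The lean depended on which untreated array was kept. Untreated replicate 1 was brighter than untreated replicate 2 for 140 of the 203 members, while over all genes it was brighter for 42.6%. The members' median intensity was 156 and 162 on the treated arrays, against 157 and 144 on the untreated ones, so that untreated replicate 2 was the dimmest of the 4. Without untreated replicate 2 the median difference of the members was -0.01, with 99 positive and 104 negative. Without untreated replicate 1 it was 0.17, with 142 positive and 61 negative. The part of untreated replicate 2 in the counts without overlap was not tested.

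**Figure D2:**
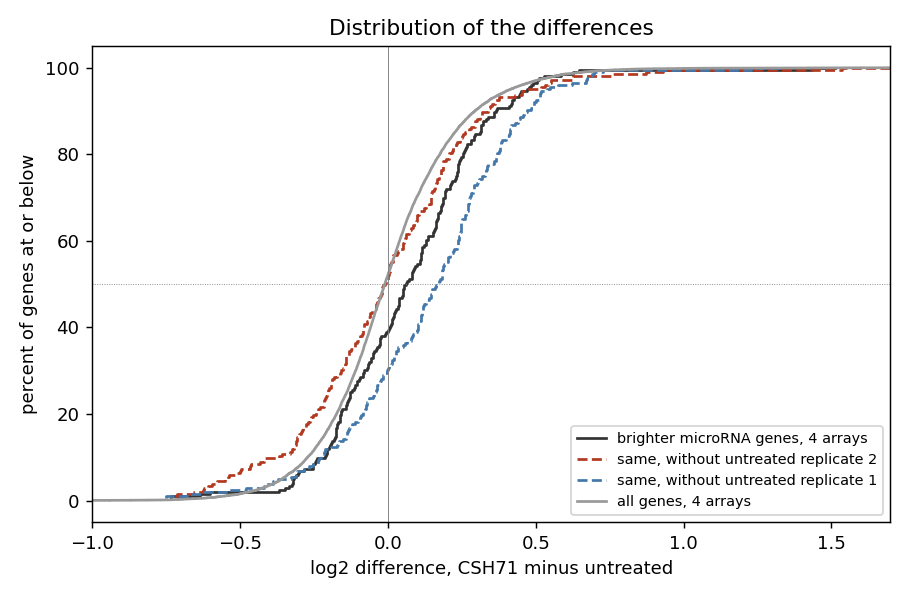
Cumulative percent of genes (vertical) at or below each log2 difference of CSH71-treated minus untreated cells (horizontal). The curve of the 203 microRNA genes crosses 50% at 0.06 with all 4 arrays, at -0.01 without untreated replicate 2 and at 0.17 without untreated replicate 1, and that of all genes at -0.01.

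After MIR21 and MIR192, the 6 members with the largest positive differences were MIR4525, MIR548I1, MIR221, MIR548I2, MIR211 and MIR3619, at 0.50 to 0.65. The groups of each did not overlap, and none passed the threshold (limma adjusted p from 0.960 to 0.999). MIR4525, in the host gene RAB40B, had 402 and 769 in CSH71-treated cells, against 356 and 343 in untreated cells. Its difference of 0.65 ± 0.29 (SE) was carried mainly by treated replicate 2, and it was 1.10 without treated replicate 1 and 0.19 without treated replicate 2. MIR4525 passed the threshold under an intensity trend in the variance prior alone (limma adjusted p = 0.035). That fit had infinite prior degrees of freedom, so the replicate spread of MIR4525 did not enter its p. It called 143 of all genes, against 7 in the main fit.

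MIR221, which is known to repress the cell-cycle inhibitor p27, had 180 and 133 with CSH71, against 73.8 and 129 without it. The treated arrays were above both untreated ones, by little in the nearest pair (0.59 ± 0.27, SE). Its cluster partner MIR222, below the floor, had 72.4 and 50.4 in treated cells, against 22.9 and 50.1 in untreated cells, a difference of 0.60 ± 0.29. In both genes untreated replicate 1 was the lowest array, and without it the difference of MIR221 was 0.24. MIR548I1 had 132 and 228 with CSH71, against 96.6 and 119 without it. MIR548I2, which reached the floor through its CSH71 mean alone, had 124 and 159 with CSH71, against 69.3 and 122 without it. These 2 belong to a repeat-derived family of near-identical copies that probes may not tell apart, and MIR548I1 has 4 probe sets with differences from 0.27 to 0.62.

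MIR211, in the melanocyte gene TRPM1, had 143 and 161 in treated cells, against 121 and 85.2 in untreated cells (0.51 ± 0.21, SE). MIR3619 had 461 and 598 with CSH71, against 418 and 320 without it. Its other probe set gave a difference of 0.34 beside the 0.50 of the brighter one, so both were positive.

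In the other direction, MIR4439, MIR4521 and MIR4710 had the 3 largest differences among the members. MIR4439, in the host gene DOCK10, had 70.6 and 109 in CSH71-treated cells, against 155 and 159 in untreated cells. Its log2 difference was -0.73 ± 0.22 (SE), and its treated arrays differed by 0.53, above the members' median of 0.23. MIR4521 had 201 and 156 with CSH71, against 276 and 293 without it (-0.64 ± 0.19), and its second, dimmer probe set gave -0.62. MIR4710 had 93.6 and 109 with CSH71, against 159 and 164 without it (-0.60 ± 0.17), with -0.43 at its second probe set. For each of these 3 the treated and untreated values were well apart, the 95% interval excluded 0, and the limma adjusted p was 0.928. They differed downwards in every alternative in which they were fitted, with ranges of -0.997 to -0.47 for MIR4439, -0.80 to -0.47 for MIR4521 and -0.69 to -0.45 for MIR4710.

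The next 3 were weaker. MIR1914, in the host gene UCKL1, had 210 and 190 in treated cells, against 324 and 212 in untreated cells (-0.37 ± 0.23, SE). MIR3155A, in the glycolytic regulator gene PFKFB3, had 87.7 and 109 with CSH71, against 151 and 109 without it (-0.35 ± 0.21). Its untreated mean alone reached the floor. MIR1914 and MIR3155A had a further trait in common. In both, untreated replicate 1 lay far above untreated replicate 2, which was close to the treated arrays. MIR181C overlapped between the groups (-0.33 ± 0.27).

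**Figure D3:**
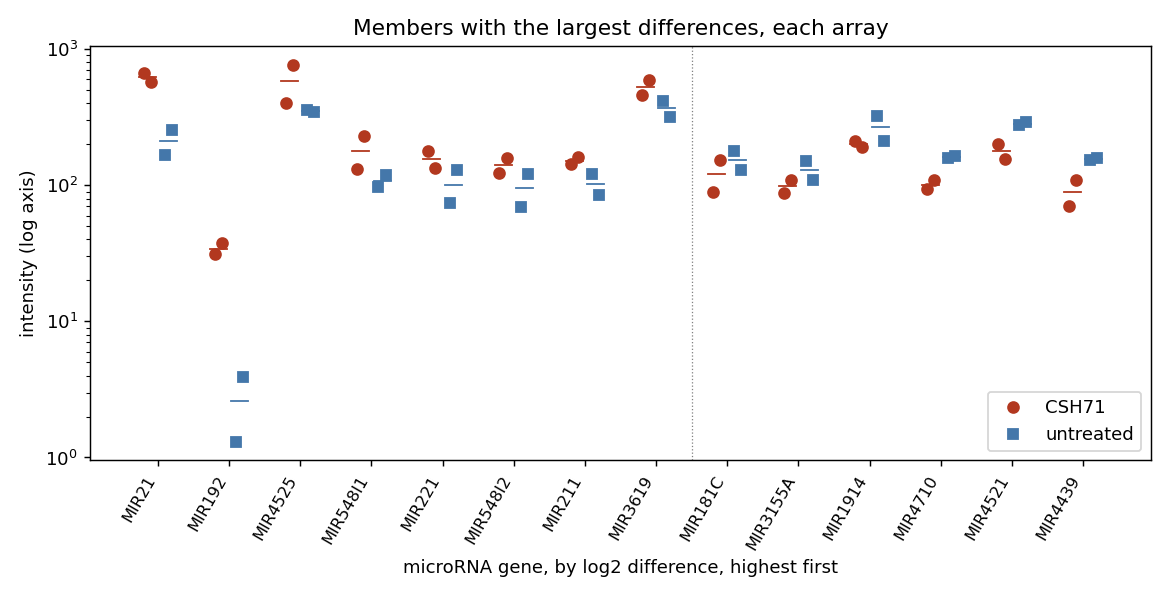
Intensity (log axis, vertical) on each array for the 8 members with the largest positive differences, left of the dotted line, and the 6 with the largest negative ones, right of it. Red circles are CSH71-treated and blue squares untreated arrays, and short lines are group means (n = 2 each). MIR21, with means of 621 and 211, and MIR192, with 34.3 and 2.61, show the widest separation between the groups.

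The brightest signals came from microRNA genes that differed little. Brightness also depends on the probes, so the order is one of probe signal and not of RNA amount. MIR4737 was the brightest, with 2815 and 2658 in CSH71-treated cells, against 2368 and 2521 in untreated cells. MIR5047 followed, with 1224 and 1393 with CSH71, against 1050 and 1094 without it. In both genes the treated arrays lay just above the untreated ones, with log2 differences of 0.16 ± 0.17 and 0.28 ± 0.17 (SE). Next came MIR181B1, MIR3659, MIR574, MIR1299, MIR3200, MIR4442, MIR182, MIR2909, MIR4533 and MIR146A, with means over the 4 arrays from 523 to 999.

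Of these, MIR3200, MIR4442 and MIR1299 were higher and MIR181B1 and MIR146A lower on both treated arrays. MIR3200 had 855 and 593 with CSH71, against 525 and 494 without it (0.47 ± 0.22, SE). MIR4442 had 652 and 717 with CSH71, against 554 and 498 without it (0.37 ± 0.17). MIR1299 had 694 and 847 with CSH71, against 650 and 647 without it (0.24 ± 0.18). MIR182, described as a driver of helper T-cell expansion in mice, had 564 and 539 in treated cells, against 768 and 519 in untreated cells, and overlapped.

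MIR3659 had 802 and 793 with CSH71, against 853 and 684 without it. MIR574 had 691 and 766 with CSH71, against 844 and 615 without it. In both the untreated values enclosed the treated ones, so that no difference could be seen. MIR2909 had 609 and 530 with CSH71, against 595 and 562 without it, and MIR4533 had 420 and 687, against 565 and 494. The treated values of these 2 enclosed the untreated ones. Below these bright genes, 133 of the 203 members had means between 100 and 200.

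**Figure D4:**
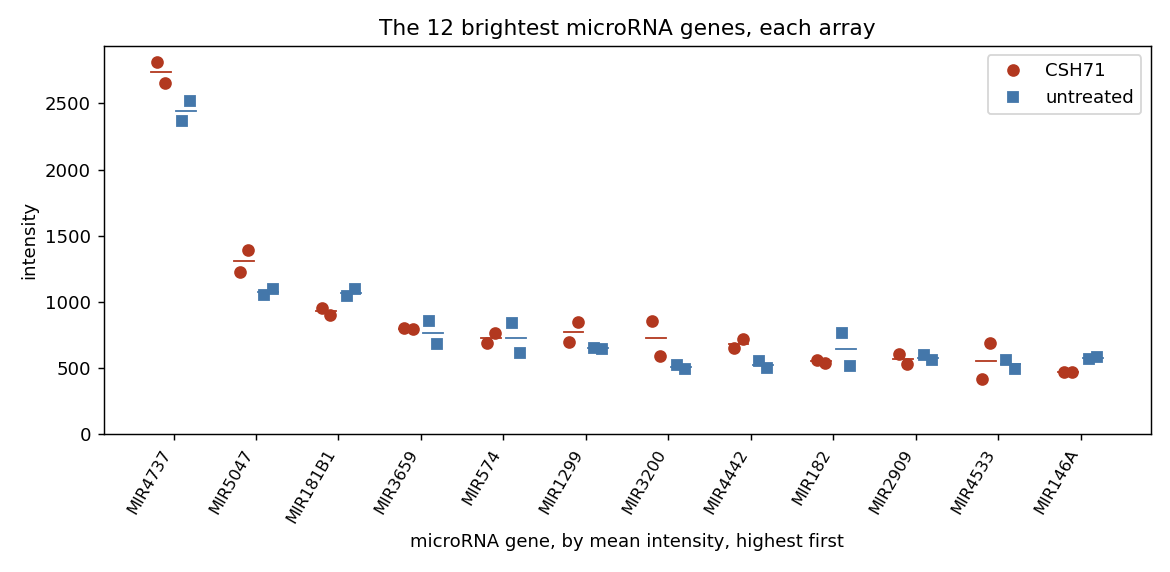
Intensity (vertical, from 0) on each array for the 12 brightest microRNA genes, in order of their mean over the 4 arrays. Red circles are CSH71-treated and blue squares untreated arrays, with short lines at the group means (n = 2 each). MIR4737 lies between 2368 and 2815. On this axis the groups of most genes are close together, though those of several do not overlap.

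Just inside the floor stood MIR4478 at a mean of 100.8, MIR1247 at 100.5 and MIR365B at 100.4. Just outside it stood MIR4262 at 99.9, MIR134 at 99.5 and MIR4740 at 99.4. These values differ by far less than the replicates of any of the 6 genes, so the floor is a convention.

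Several members have known roles in T cells and other blood cells. MIR146A, the negative regulator of NF-κB signalling through TRAF6 and IRAK1, had 468 and 471 in CSH71-treated cells, against 566 and 585 in untreated cells. Replicates agreed closely and the groups were apart, but the log2 difference was small at -0.28 ± 0.16 (SE), with a 95% interval of -0.67 to 0.11. MIR142, a microRNA of the whole haematopoietic lineage, had 115 and 121 with CSH71, against 118 and 135 without it. MIR223, best known in myeloid cells, had 99.8 and 117 with CSH71, against 144 and 135 without it (-0.33 ± 0.17). MIR142 overlapped between the groups and MIR223 did not. MIR210, induced in hypoxia through HIF-1, had 398 and 331 with CSH71, against 310 and 269 without it (0.32 ± 0.19), while its host transcript MIR210HG overlapped (0.22 ± 0.22).

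MIR155, an activation-induced microRNA of lymphocytes, lay below the floor, with 77.3 and 92.1 in treated cells, against 67.5 and 39.5 in untreated cells. Those groups did not overlap, and the log2 difference of MIR155 was 0.56 with a limma adjusted p of 0.97. MIR326, which is known to promote Th17 differentiation in mice, had 129.8 and 129.9 with CSH71, against 152 and 153 without it. Its replicates were almost identical, the difference was -0.21, and its second probe set gave -0.41.

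Of the members, 183 had at least 1 mature sequence in the RefSeq table used, and these held 250 distinct seeds. There were 13 seeds shared by at least 2 members, in 23 members. The miR-181 family is shown because it had the third brightest member. Its genes among the members lie in 2 places in the genome, MIR181B1 on chromosome 1 and MIR181C with MIR181D on chromosome 19. Capitals mark the seed.
hsa-miR-181b-5p: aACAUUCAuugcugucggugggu
hsa-miR-181c-5p: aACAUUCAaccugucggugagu
hsa-miR-181d-5p: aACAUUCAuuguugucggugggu

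All 3 miR-181 genes among the members had negative differences, and only MIR181B1 of these had groups that did not overlap. MIR181B1 had 956 and 902 in CSH71-treated cells, against 1041 and 1096 in untreated cells (-0.20 ± 0.17, SE). MIR181C had 89.9 and 153 with CSH71, against 178 and 130 without it, and MIR181D had 197 and 239, against 255 and 223 (-0.13 ± 0.18). The 95% interval of each held 0. The host transcript of MIR181B1, MIR181A1HG, had 2283 and 2233 with CSH71, against 2159 and 2291 without it, and overlapped between the groups. MIR181A1, the neighbour of MIR181B1 and below the floor, had 14.3 and 18.7 with CSH71, against 12.3 and 18.3 without it. Its groups overlapped, with a difference of 0.06 ± 0.19.

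The let-7 family represses growth and cell-cycle genes and is held back by LIN28 proteins. Its 4 members are shown because 1 seed covers genes with differences of both signs.
hsa-miR-98-5p: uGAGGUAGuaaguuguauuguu
hsa-let-7a-5p: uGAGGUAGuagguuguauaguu
hsa-let-7e-5p: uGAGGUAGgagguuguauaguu
hsa-miR-4458: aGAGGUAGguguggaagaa

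MIR98 had 264 and 223 in CSH71-treated cells, against 163 and 185 in untreated cells. It was the only one of the 4 whose groups were apart, with a log2 difference of 0.45 ± 0.18 (SE), a 95% interval of 0.02 to 0.88 and a limma adjusted p of 0.963. MIRLET7A3 had 148 and 124 with CSH71, against 157 and 90.0 without it. MIRLET7E had 149 and 176 with CSH71, against 207 and 160 without it. MIR4458 had 105 and 113 with CSH71, against 122 and 89.2 without it. In these other three, untreated replicate 1 was the highest array, and the differences were 0.16, -0.15 and 0.05.

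Copies of a gene are a further kind of shared seed. MIR105-1 and MIR105-2, a pair of copies on the X chromosome with identical mature sequences, were both higher with CSH71. MIR105-1 had 134 and 162 in treated cells, against 103 and 99.6 in untreated cells (0.48 ± 0.18, SE). MIR105-2, which reached the floor through its CSH71 mean alone, had 125 and 106 with CSH71, against 97.5 and 78.6 without it (0.34 ± 0.19). Because the copies are near-identical, they are not separate evidence. Of 4 MIR3689 genes among the members, MIR3689A was at 0.06, MIR3689B at -0.05, MIR3689D1 at 0.03 and MIR3689F at 0.29, and MIR3689F alone of these had groups that did not overlap.

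Genes less than 10 kb apart on 1 strand usually share a primary transcript, and several such neighbours had differences of unlike sign or size here. In the MIR23B cluster, MIR23B had 129 and 224 with CSH71, against 214 and 127 without it, so that the 2 groups spanned nearly the same range. MIR24-1 and MIR27B beside it, both below the floor, had differences of -0.18 ± 0.19 and 0.18 ± 0.24 (SE). The groups of both overlapped. In the separate MIR23A cluster, MIR24-2 had 171 and 168 in treated cells, against 133 and 137 in untreated cells (0.29 ± 0.16, SE). MIR27A beside it, below the floor, had 46.0 and 57.7 in treated cells, against 69.6 and 63.8 in untreated cells (-0.29 ± 0.18). MIR362, in the X-chromosome cluster inside CLCN5, had 146 and 134 with CSH71, against 97.1 and 104 without it (0.42 ± 0.17), and MIR502 in the same cluster overlapped (0.07 ± 0.18). MIR647 and MIR1914, both inside UCKL1, had differences of 0.19 and -0.37. MIR4732 had 357 and 356 with CSH71, against 298 and 250 without it (0.37 ± 0.18), and its neighbour MIR144, a microRNA of red blood cells, had 82.7 and 83.0, against 56.8 and 45.2 (0.57 ± 0.18).

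In the RefSeq tables, 109 of the 172 members with a hairpin entry lay within another gene on the same strand, and for 66 of them that gene was measured as well. Of these 66 pairs, 35 had differences of the same sign. Across the pairs Pearson's r was 0.24 and Spearman's rho 0.08, and r was 0.06 without MIR21 and VMP1. The pairs share the 4 arrays and some hosts hold several microRNA genes, so these are descriptions across genes. None of the 62 hosts passed the limma threshold, and at an unadjusted p under 0.05 there was VMP1 alone. MIR4439 and its host DOCK10 were both lower without overlap, at -0.73 and -0.28. Besides MIR21 and VMP1, both genes were higher without overlap for MIR3200 in OSBP2, MIR644A in ITCH and MIR4296 in CTBP2. For MIR4440 in HDAC4, MIR3125 in TRIB2 and MIR1272 in RBPMS2 the host was lower and the microRNA gene higher without overlap.

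**Figure D5:**
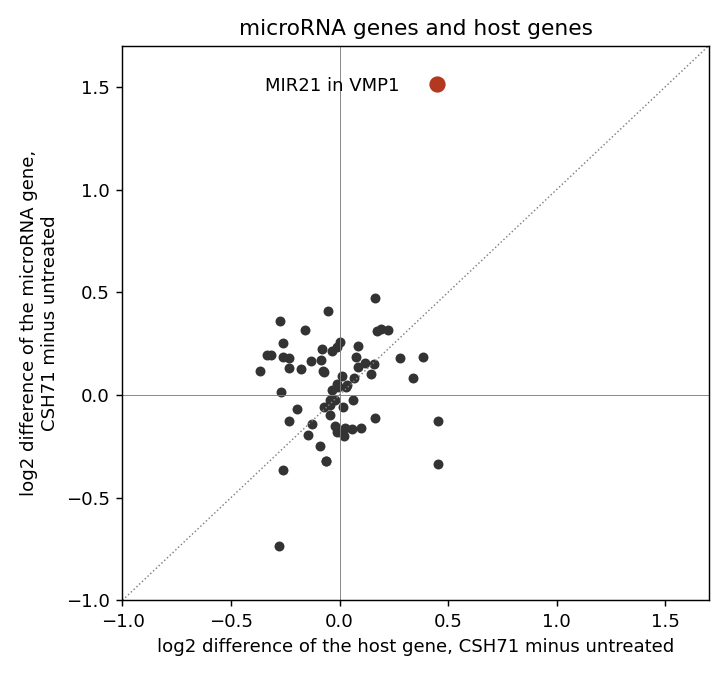
Log2 difference of the host gene (horizontal) against that of the microRNA gene within it (vertical), CSH71-treated minus untreated, for 66 pairs. The dotted line marks equal differences. MIR21 in VMP1, in red, lies at 0.45 and 1.51, far above the line, and the other pairs form a cloud around 0.

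Among the measured genes for making and using microRNAs, transcript levels differed little. The genes of Drosha, Dicer and the Argonaute proteins were not among these measured genes. The measured genes were 11 of 19 listed for nuclear processing and export, 9 of 21 for the cytoplasmic processing and effector complexes and 11 of 18 for microRNA tailing and turnover. None passed the limma threshold or an unadjusted p under 0.05 (5.1% of all genes had one), and all 31 differed by less than 0.5. In the nuclear list 5 of 11 genes were higher without overlap (45.5%, against 15.0% of all genes) and 1 lower (9.09%, against 16.6%). In each of the other lists 1 was higher and 1 lower without overlap. The list medians were -0.02, -0.01 and -0.02, against -0.01 for all genes. METTL3, an RNA methyltransferase that marks primary transcripts for processing, had 905 and 897 in CSH71-treated cells, against 778 and 758 in untreated cells (0.23 ± 0.16, SE). DGCR8 was at -0.05, the export factor XPO5 at -0.12, and TARBP2, a partner of Dicer, at -0.18. LIN28B, which blocks let-7 processing, had 845 and 860 with CSH71, against 914 and 985 without it (-0.15 ± 0.17).

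Of the genes described as targets of miR-21, JAG1 and SMAD7 had the largest differences, and both were higher with CSH71. Of 21 measured among 30 listed, none passed the limma threshold, 4 had an unadjusted p under 0.05, all higher (3.2% of all genes had one upwards), 14 were positive and 7 negative, and the median was 0.06. JAG1, a Notch ligand, had 81.1 and 121 in CSH71-treated cells, against 51.9 and 40.1 in untreated cells (0.90 ± 0.22, SE). SMAD7, an inhibitor of TGF-β signalling, had 250 and 226 with CSH71, against 155 and 158 without it (0.56 ± 0.17). DUSP10, a phosphatase of mitogen-activated protein kinases, was at 0.42. PDCD4, the target most often named for miR-21, had 1433 and 1684 with CSH71, against 1700 and 1638 without it, a difference of -0.10 with overlapping groups.

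The 14 measured of 20 listed targets described for miR-192 had a median of 0.01, with 9 positive and 5 negative. Among them EGR1, an immediate early transcription factor, had 300.5 and 303 in treated cells, against 87.8 and 90.0 in untreated cells (1.599 ± 0.16, SE). Its replicates agreed closely, its limma adjusted p of 0.052 missed the threshold, and it passed in 7 of the 14 alternatives. The other 13 had no unadjusted p under 0.05, with CXCL2, a chemokine, at 0.40 and ZEB1 and ZEB2, repressors of epithelial genes, at 0.14 and 0.17. Among 33 measured of 62 listed microRNA host genes, whose median was -0.01, 2 had an unadjusted p under 0.05, which is 6.06% and near the 5.1% of all genes. They were VMP1 and SMC4, a condensin subunit that hosts MIR15B and MIR16-2. SMC4 had 2895 and 3027 with CSH71, against 1909 and 2192 without it (0.53 ± 0.17), and its 2 microRNA genes lay below the floor. MIR15B had 102 and 134 with CSH71, against 47.8 and 90.7 without it (0.69 ± 0.27). MIR16-2 had 115 and 103 with CSH71, against 70.9 and 66.2 without it (0.56 ± 0.17). Host and both microRNA genes were higher on both treated arrays, and none passed the threshold.

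The arrays gave signals for T-cell genes, and 8 of 14 listed T-cell markers were measured. CD3D, CD3E, CD3G and TRAC were among those not measured. The summed intensity of the 8 was 7696 and 7111 in CSH71-treated cells, against 7372 and 7503 in untreated cells. Their means over the 4 arrays ran from 76.1 for CD2 to 1904 for CD5. The 4 measured monocyte markers summed to 357 and 447 with CSH71, against 489 and 370 without it, with CD14 at 80.1 and 82.3, against 91.5 and 63.5. The brightest of them was CSF1R, with a mean of 197 over the 4 arrays. PAX5 was the 1 measured B-cell marker, at 142 and 187 with CSH71, against 203 and 171 without it. Of the 3 erythroid markers 0 were measured. None of the marker genes differed beyond 0.30 on the log2 scale in either direction. EPCAM, an epithelial gene, was bright on all arrays, at 1943 and 2169 with CSH71, against 2087 and 2036 without it. KRT18, another epithelial marker, had 467 and 560 with CSH71, against 576 and 478 without it, and KRT8 had a mean of 104. The source of these signals was not tested.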

How the data were processed

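Total RNA of 2 CSH71-treated and 2 untreated samples was measured on Affymetrix whole-transcript arrays. The authors deposited 1 linear intensity for each probe set on each array, from 0 to 19331, made with Affymetrix Expression Console per the submitters' processing notes. How it summarised, background-corrected and normalized the probes is not given in the sources used here. No detection calls were used, and precision is limited by having 4 arrays. Array medians were 73.6 and 81.1 with CSH71 and 77.5 and 71.5 without it.

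The annotation gave a single symbol to 16098 of the 53617 probe sets, several to 0 and none to the remaining 37519. For a gene with several, the probe set with the highest mean was used. Among the 203 members 28 have several probe sets, and those of MIR3135B, MIR4267, MIR4518 and MIR4533 differ in sign. Values were transformed to log2(intensity + 16) and the 2 groups were compared with limma 3.58.1 (R 4.3.3), with Benjamini-Hochberg adjustment over 14884 genes. The fit was run on simulated, independent arrays with known changes. That run checked the size of the log2 difference and not the error rate on these arrays. Alternatives were other pseudocounts, scalings, filters, variance priors, probe-set rules, intensity floors, a replicate block and each array left out. Figures were drawn with matplotlib 3.10.9.

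The members, lists and tests were chosen with earlier results of these data known. Named genes are MIR21, MIR192, the 12 brightest, the 6 largest differences each way, genes next to the floor, genes sharing a seed, cluster or host with these, and up to 4 per list by smallest p. DGCR8, XPO5, PDCD4, ZEB1, ZEB2 MIR15B, MIR16-2, and the microRNA genes described for their roles in blood cells, their clusters or their copies were named after their values were seen. Same-numbered arrays deviated from their group means in opposite directions (r = -0.29 over all genes). The labels do not say whether same-numbered samples were paired, and with 2 arrays a group this value cannot decide it. Hosts, clusters (within 10 kb) and sequences are from RefSeq (GRCh38.p14), where 172 members had a hairpin. Mature sequences of 15 members also belong to another gene.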

Additional observations from a re-analysis of the deposited data

How the results depend on the processing

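With 2 arrays a group and no background level, dim genes are the least certain. The count of called members was 0 as reported by limma, with 12 at an unadjusted p under 0.05. A pseudocount of 64 gave 1 (MIR21). Median centring or the replicate block gave 2 (MIR21 and MIR192 in each). The limma adjusted p with the block was 3.7e-05 and 0.000167, with infinite prior degrees of freedom, which gives all genes 1 common variance. With an intensity trend in the variance prior, again with infinite prior degrees of freedom, the count was 3 (these 2 and MIR4525). It ran from 0 to 2 with 1 array left out. The count over all genes, 7 as reported (6 higher and 1 lower), was 0 with a pseudocount of 1, quantile normalization or all probe sets, 12 without the dimmest 40% of genes, 27 with median centring, 27 with the replicate block, 33 with a pseudocount of 64, 143 with the intensity trend, and 0 to 29 with 1 array left out. A crossed replicate block, added after the data had been seen, called 0 genes and 0 members (1288 and 20 at an unadjusted p under 0.05). Of the listed related genes, 0 were called as reported, 1 (EGR1) with a pseudocount of 64, median centring, the filter or the replicate block, 4 with the intensity trend, and 0 to 1 with 1 array left out. The median difference of the members was -0.0069 to 0.17 with 1 array left out, and the numbers of members higher and lower without overlap, 50 and 19 as reported, were 53 and 14 after quantile normalization (26.1% and 6.90%, against 17.2% and 18.7% of all genes) and 62 and 18 after median centring (30.5% and 8.87%, against 16.1% and 12.7% of all genes). They were not recounted with 3 arrays.

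Of 722 values of 52 single genes under alternatives, 686 kept direction and side of the threshold, 22 (in 7 genes) passed it and 14 (in 9 genes) turned direction. These were MIR2909 after quantile normalization (0.0077), MIR4533 (-0.0006) and CADM1 (0.14) with the mean of the probe sets, and, with 1 array left out, MIR3659 (lowest -0.10, highest 0.22), MIR574 (-0.21, 0.24), MIR182 (-0.47, 0.0847), MIR2909 (-0.12, 0.0718), MIR4533 (-0.32, 0.37), MIR181C (-0.67, 0.0035), XRN1 (-0.0237, 0.26) and MIR194-2 (-0.24, 0.0742). The cause was not tested.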

Other observations

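Among the 869 microRNA genes below the floor, the smallest p belonged to MIR596, which had intensities of 19.6 and 28.6 in CSH71-treated cells, against 89.9 and 68.9 in untreated cells, a log2 difference of -1.25 ± 0.20 (SE; limma adjusted p = 0.446). It was the largest difference downwards of all 1072 microRNA genes, and its groups were far apart. MIR4632 had 44.4 and 41.7 with CSH71, against 18.0 and 11.1 without it (0.96 ± 0.19; 0.693). MIR489 had 59.0 and 72.3 with CSH71, against 31.6 and 20.8 without it (0.96 ± 0.20; 0.744). Of the 3 others that differed at least 2-fold, MIR3617 and MIR509-1 were high on CSH71 replicate 2 alone, with 121 and 151 there, and MIR3621 was low on untreated replicate 2 alone, at 0.22. At an unadjusted p under 0.05 there were 78 of these dim genes, 62 higher and 16 lower, which is 8.98% against 5.1% of all genes, and none passed after adjustment.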
